A study of Mus musculus with 1778 samples.

Results

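Mouse cells labelled through Wnt1::Cre, a driver used for cranial neural crest, were sorted at 6 somites. They were divided by the reads they carried for Pou5f1, the gene of the transcription factor Oct4. The comparison is between Pou5f1-positive cells, with at least 3 Pou5f1 reads, and Pou5f1-negative cells, with 0, on 3 plates. Members were selected on measured Pou5f1 reads alone, among cells with at least 50000 reads outside the ERCC spike-ins and at least 1500 genes. Positive cells numbered 72, 72 and 27 on the plates, 23.1% of the 6 somite cells kept there (exact 95% interval 20.1 to 26.3%), and negative cells were 73%. Another 29 cells had 1 or 2 Pou5f1 reads and belong to neither group. The filter left out 24 cells of these plates, and in the whole series 1728 of 1778 cells passed it.

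Both groups share strain (C57BL/6), stage and genotype: embryos carried Wnt1::Cre with Rosa26TdTomato, and single fluorescent cells were sorted into lysis buffer and read by Smart-Seq2, a full-length method without molecular identifiers. The Wnt1 driver is also active in the dorsal neural tube and midbrain, so the label marks more than migrating crest. The labels name no embryo or litter, and each plate and group was treated as 1 pool: cells are not replicates, no p-value is given, and intervals cover counting error only. Cells were assigned to plates by the number in their titles, whose meaning the labels leave unstated. Plates A, B and C are those of titles such as A01.7350589.scRNA-seq, A01.7350590.scRNA-seq and A13.7350658.scRNA-seq, and wherever 3 values follow each other they are for plates A, B and C.

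Oct4 holds the epiblast in a pluripotent state together with Sox2 and Nanog, and is lost from most of the embryo as the germ layers form. Neural crest cells arise at the border of the neural plate, leave the neuroepithelium by an epithelial-to-mesenchymal transition, and give rise to ectodermal types as well as the skeleton of the face. Oct4 binds an octamer sequence, often beside a Sox site. In its own proximal promoter a nuclear receptor site lies close to the start.

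The upstream sequences of Pou5f1 itself and of 3 genes described below are shown because they are regulators of that network, or, for Pim2, the gene with the largest mean ratio after Pou5f1 among those always reported. They are RefSeq windows of the 250 bases before the start on GRCm38.p6, plus strand, 5′ to 3′. Capitals mark the octamer core ATGCAAA, the receptor site AGGTCA and the Sox motif AACAATG, on either strand.
Pou5f1, chr17:35505782-35506031: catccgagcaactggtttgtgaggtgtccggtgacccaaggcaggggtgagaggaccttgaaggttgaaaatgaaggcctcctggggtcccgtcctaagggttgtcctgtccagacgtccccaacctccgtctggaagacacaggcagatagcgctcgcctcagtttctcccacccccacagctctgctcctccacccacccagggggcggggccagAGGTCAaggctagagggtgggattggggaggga
Nanog, chr6:122707239-122707488: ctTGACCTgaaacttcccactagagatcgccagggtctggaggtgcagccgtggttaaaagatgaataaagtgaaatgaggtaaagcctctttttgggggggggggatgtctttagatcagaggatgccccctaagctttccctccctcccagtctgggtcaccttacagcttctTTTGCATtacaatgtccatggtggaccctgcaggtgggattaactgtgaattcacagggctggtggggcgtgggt
Sox2, chr3:34649745-34649994: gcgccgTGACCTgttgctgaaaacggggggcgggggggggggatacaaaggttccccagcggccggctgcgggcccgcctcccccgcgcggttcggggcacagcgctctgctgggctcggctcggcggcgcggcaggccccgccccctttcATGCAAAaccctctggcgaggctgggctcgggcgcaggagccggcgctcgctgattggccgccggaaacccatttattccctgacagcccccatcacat
Pim2, chrX:7878056-7878305: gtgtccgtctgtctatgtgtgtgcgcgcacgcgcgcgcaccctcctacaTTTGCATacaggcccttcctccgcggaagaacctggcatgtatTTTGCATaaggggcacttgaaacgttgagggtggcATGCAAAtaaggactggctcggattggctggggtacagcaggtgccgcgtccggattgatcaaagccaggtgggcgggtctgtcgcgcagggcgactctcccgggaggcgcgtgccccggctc

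The octamer core was found in the Nanog, Sox2 and Pim2 windows and not in that of Pou5f1. The Sox motif matched in none of the windows shown. Only exact matches were marked, so near matches are missed, such as tacaatg directly after the core in the Nanog window. Pim2 held 3 matches, of which 2 are the full octamer ATGCAAAT, which contains the core. Of 32851 promoter windows of the same length, 4.12% held the core, 1.6% the full octamer, 3.29% the Sox motif and 14% the receptor site. Among 77 named genes with a RefSeq window (of 97 named), 8 held the core. A gene was counted if any of its windows matched, so this count is not on the same footing as the share of windows. Of the 8, Igf2, Il17rd and Sesn2 were lower in positive cells on all plates, and Nanog, Pim2, Pipox, Ptgr1 and Sox2 were higher. The receptor site in the Pou5f1 window lay 33 to 28 bases before the start. Pou5f1 and Nanog each have a second annotated start, which is not shown. A match describes these letters and does not show binding.

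Positive cells made up 19.3% of kept cells on plate A (exact interval 15.4 to 23.7%), 40% on plate B (32.8 to 47.6%) and 14.4% on plate C (9.68 to 20.2%). Pou5f1 itself, which defined the groups, summed to 40, 45.7 and 23.1 CPM in positive cells, where CPM are counts per 1000000 reads other than those of ERCC and Rn45s, and to 0 reads in negative cells. Per-cell counts in positive cells reached 44, 76 and 16 reads. Just inside the threshold, 6 cells had 3 reads and 17 had 4. Just outside it, 14 had 1 read and 15 had 2. On plate C only 5 cells had 10 or more reads, against 41 on plate A and 53 on plate B, so its positive group lies nearer to the threshold. Pou5f1 (chromosome 17, 35506018 to 35510772 on GRCm38) and Nanog have processed pseudogenes, and the sources used here do not say how multiply mapped reads were handled.

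Depth was close between the groups. Median reads outside Rn45s, a ribosomal RNA precursor that took most reads, were 344296 in positive and 315930 in negative cells on plate A. They were 480653 and 446955 on plate B, and 268003 and 282955 on plate C. Median genes per cell were 6447 in positive and 6256 in negative cells, 6224 and 6122, and 7348 and 7137 on the same plates. ERCC reads did differ on plate C, with a median of 1487 in positive and 8995 in negative cells, and they followed blocks of 6 plate columns. There, 18 of the 27 positive cells stood in columns 13 to 18. On plate B positive cells were 26.6% of columns 1 to 6 and 54.7% of columns 7 to 12. The part of these positions in the results was not tested beyond ratios formed within column blocks, which gave 14 genes 2-fold lower on all 3 plates, 12 of them among the 15 without blocks.

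Crest identity did not follow Pou5f1 in one direction. Cells with at least 3 reads of Sox10, a crest transcription factor, were 22.2% of positive and 28.7% of negative cells on plate A, 5.56% and 12.6% on plate B, and 51.9% and 37.9% on plate C. Over the 3 plates 19.9% of positive and 28.1% of negative cells met this mark, so most cells of either group lacked it. Sox10 summed to 52.2 CPM in positive and 70.7 CPM in negative cells, to 7.10 and 27.5 CPM, and to 150.5 and 129.7 CPM on the same plates. The log2 ratios of positive over negative cells were -0.44, -1.95 and 0.22. The 4 crest specifiers with enough reads turned the same way as Sox10, with medians of -0.66, -0.97 and 0.58. Sox9, which acts early in the crest, had -0.02, -0.59 and 0.97, and Ets1, which marks cranial crest, had -1.09, -1.78 and 0.19.

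Across all genes the groups were close. With a minimum mean of 10 CPM on each plate and reads in at least 20% of the cells of either group, 7854 genes could be read, Pou5f1 left out. Their median log2 ratio was -0.01, -0.00 and -0.00 on the 3 plates, a value that scaling to equal totals keeps near 0. At least 2-fold higher in positive cells were 17 genes on plate A (0.216%), 59 on plate B (0.751%) and 46 on plate C (0.586%). At least 2-fold lower were 76 genes (0.968%) on the first plate, 1.88% of genes on the second and 2.57% on the third. On all 3 plates together 0 genes were 2-fold higher (0%) and 15 were 2-fold lower (0.191%). At 1.5-fold the counts were 10 higher (0.127%) and 59 lower (0.751%). Ratios of the same sign on every plate, whatever their size, were found for 1247 genes higher (15.9%) and 1359 lower (17.3%). Across these genes Pearson correlations between plates lay between 0.19 and 0.24, as a description over genes and not over replicates.

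Pluripotency genes other than Pou5f1 were scarce. Of 17 core pluripotency genes on the list, only Sox2 and Sall4 reached the minimum. Both were higher on all 3 plates, as were 15.9% of all genes. Sox2, the partner of Oct4 and a neuroepithelial factor, summed to 37.2 CPM in positive and 21.4 CPM in negative cells on plate A, to 44.1 and 25.9 CPM on plate B, and to 39.9 and 31.4 CPM on plate C. Thus its log2 ratios were 0.80 (0.69 to 0.91), 0.77 (0.66 to 0.88) and 0.35 (0.16 to 0.52). The median positive cell had 22.4, 36.6 and 28.4 CPM of Sox2 on these plates, against 5.37, 11.3 and 11.9 CPM in the median negative cell. The highest cells had 145.96, 174.4 and 184.1 CPM in the positive and 164.6, 158.5 and 199.7 CPM in the negative group, so the groups overlapped widely.

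Sall4, a zinc finger factor that works with Oct4, was present in nearly every cell of either group. It summed to 262.96 CPM in positive and 208.5 CPM in negative cells, to 427.1 and 266.2 CPM, and to 244.9 and 193.8 CPM on the same plates. The ratios were 0.33, 0.68 and 0.34.

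Nanog, the third core factor, lay below the minimum on all 3 plates and was described because it was always to be named. It summed to 3.48 CPM in positive and 2.38 CPM in negative cells, to 12.02 and 6.80 CPM, and to 1.43 and 1.09 CPM. Its ratios were 0.55, 0.82 and 0.45, the last with an interval from -0.70 to 1.37. After thinning each cell to 100000 reads, 23.6% of positive and 10.7% of negative cells on plate B had a Nanog read, against 11.1% and 5.48% on plate A and 3.70% and 2.76% on plate C. Without the highest cell of each group the 3 ratios became 0.09, 1.04 and -1.33, so outside plate B few cells carried the difference.

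The other 14 core pluripotency genes on the list were at no more than 7.53 CPM in either group of any plate. Klf4, a naive state factor, had 1.44 CPM in positive and 0.99 CPM in negative cells on plate A, 2.12 and 1.13 CPM on plate B, and 0 and 1 read on plate C. Tdgf1, a Nodal co-receptor of the epiblast, had 0 reads in positive cells of every plate, against 3.11, 0.34 and 0 CPM in negative cells. Zfp42 (Rex1) had 0, 11 and 0 reads in positive cells and 10, 2 and 0 in negative cells. Utf1, a chromatin factor and Oct4 target in embryonic stem cells, was at 2.80, 6.18 and 0.26 CPM in positive cells and at 1.59, 1.11 and 1.33 CPM in negative cells, the last plate going against the others.

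Of 15 known Oct4 target genes, 5 could be read: Sox2, Sall4 and Jarid2 were higher on all 3 plates, Upp1 was lower on all 3, and Mycn was neither. Of all genes, 15.9% were higher and 17.3% lower on all plates. At 1.5-fold on every plate, 0 of the 5 were higher and 1, Upp1, was lower. Jarid2, a component of Polycomb complexes, had ratios of 0.31, 0.16 and 0.26. Upp1, a uridine phosphorylase, had -1.68, -0.80 and -0.84. Among 13 genes of the primed epiblast 5 were read. Dnmt3b, a DNA methyltransferase of the epiblast, summed to 545.3 CPM in positive and 426.7 CPM in negative cells, to 849.95 and 588.3 CPM, and to 470.5 and 404.4 CPM. Pou3f1, a neural POU factor, had ratios of 0.72, 0.80 and 0.04, and Tead2 had 0.14, 0.41 and 0.12. Otx2, a head and epiblast factor, had -0.39, 0.14 and 0.60 and did not keep a direction. Nor did Fgf5, a marker of the primed epiblast, with -0.75, 1.08 and 1.01 at no more than 18.9 CPM. Fgf5 was not among those read, as it lay below the minimum on plates A and C. Negative cells there had 6.63 and 1.45 CPM.

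Pim2, a serine/threonine kinase that promotes survival, differed most, after Pou5f1, among the genes always named. It summed to 206.96 CPM in positive and 92.2 CPM in negative cells on plate A, and to 498.5 and 224.1 CPM on plate B. On plate C it was at 39.2 CPM in positive and 32.5 CPM in negative cells. The log2 ratios were 1.17, 1.15 and 0.27, so the difference was over 2-fold on 2 plates and small on the plate where Pim2 was lowest. The median positive cell held 95.1, 373.4 and 5.002 CPM of Pim2, the median negative cell 6.35, 66.1 and 3.24 CPM. The highest negative cell of plate A reached 1329.5 CPM, above the highest positive cell there, at 1146 CPM. Of the 8 genes on the list of Pim kinases and Stat response, 3 were read. All 3 were higher on every plate, as were 15.9% of all genes. Socs2, a feedback inhibitor of cytokine signalling, had 0.30, 0.36 and 0.31. Pim3 had 0.05, 0.07 and 0.03, close to equal levels.

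**Figure D1:**
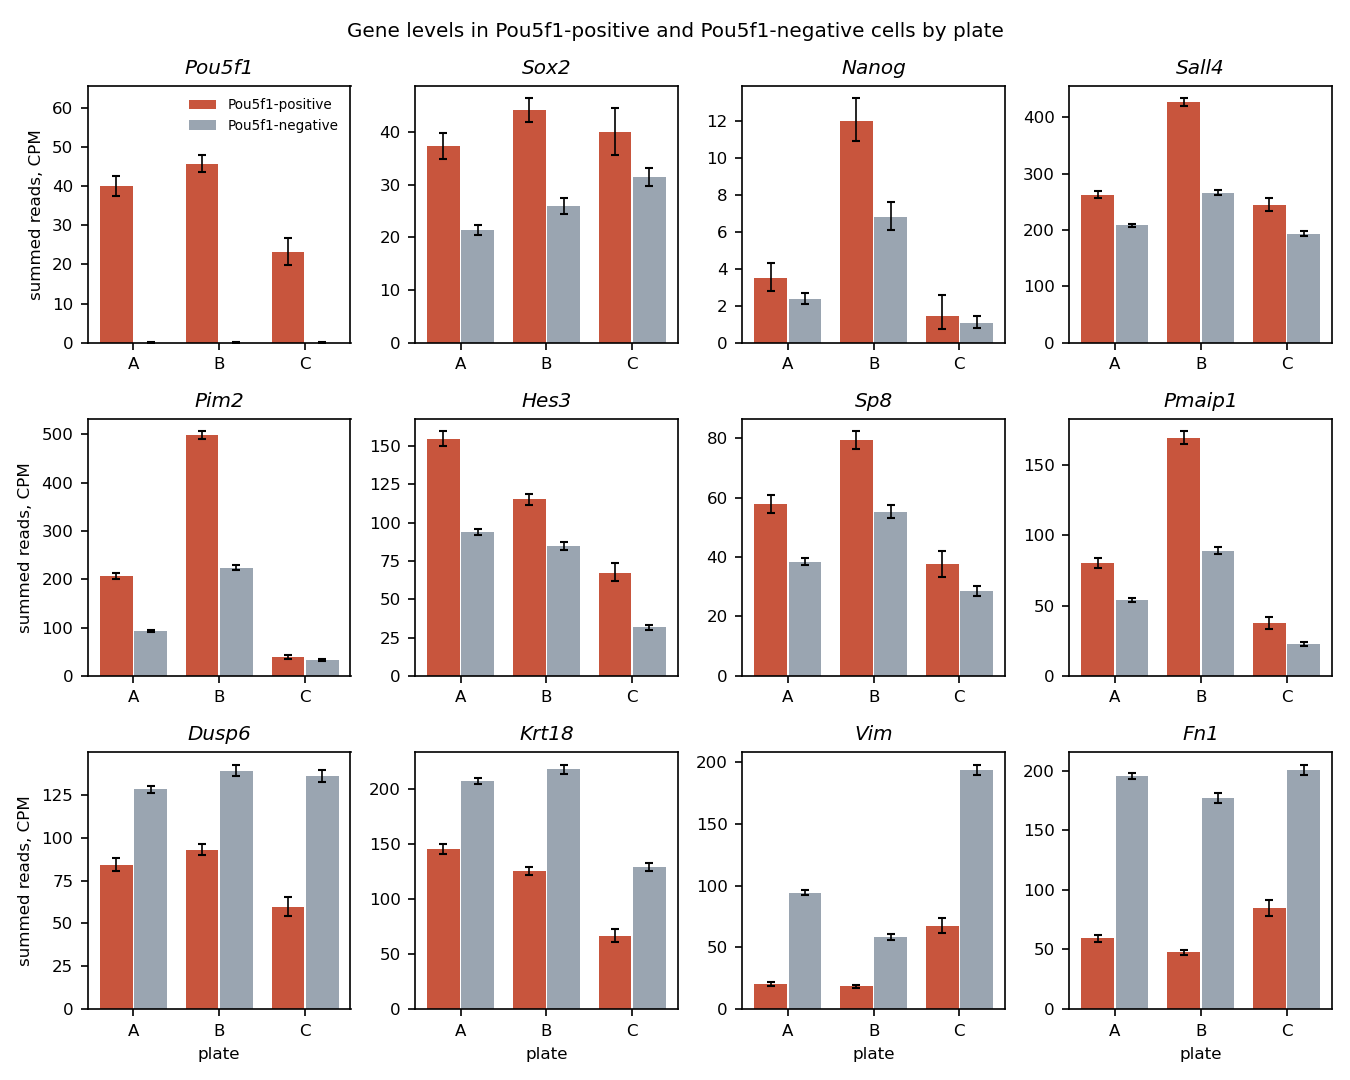
Summed reads in CPM of 12 genes (vertical axes from 0) in Pou5f1-positive cells (red, left) and Pou5f1-negative cells (grey, right) on each plate, with exact Poisson intervals for counting error. Pou5f1 chose the groups; Sox2, Nanog, Sall4, Pim2, Hes3, Sp8 and Pmaip1 are higher in positive cells on every plate, and Dusp6, Krt18, Vim and Fn1 are lower.

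Several neuroepithelial genes were higher. Of 16 listed, 9 were read, 3 were higher on all plates and 0 were lower, against 15.9% and 17.3% of all genes, with medians of 0.33, 0.23 and 0.35 against medians near 0 over all genes. Besides Sox2, these were Hes3, a repressor that keeps neural progenitors undifferentiated at the midbrain and hindbrain, and Sox21. Hes3 summed to 154.6 CPM in positive and 93.9 CPM in negative cells, to 115.2 and 84.9 CPM, and to 67.4 and 31.7 CPM. Its ratios were 0.72, 0.44 and 1.09. Sox21, a neural progenitor factor, had 0.66, 0.37 and 0.68. The other 6 read members changed sign between plates, among them Pax6 with -0.35, 0.14 and 0.88 and Nes with -0.50, 0.23 and 0.40.

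Genes of the anterior neural plate followed in part. Of 14 listed, 6 were read, and En1, Hesx1 and Six3 were higher on all plates while 0 were lower, against 15.9% and 17.3% of all genes. En1, a midbrain factor, summed to 24.6 CPM in positive and 14.96 CPM in negative cells, to 20.6 and 14.7 CPM, and to 19.2 and 13.4 CPM. Hesx1, of the forebrain and pituitary, had 0.73, 0.36 and 0.13, and Six3, of the forebrain and eye, had 0.79, 0.20 and 0.08. Sp8, a zinc finger factor of the neural plate on the list of Wnt targets, had ratios of 0.59, 0.52 and 0.40. Thinned cells with a read of Sp8 were 76.4% of positive and 61.6% of negative cells, 90.3% and 70.9%, and 77.8% and 44.8%.

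Over all genes, the 15 with the largest ratio kept on every plate stood between 0.53 and 1.26. They were chosen for that pattern and are a description. Zfp65, Gdf10, Btbd17, Gsdme, Garem2, Eps8, Pipox, Ptgr1, Actr3b, Lrig1, Pmaip1, Foxb1, Sgtb, Nceh1 and Trmt61a made up the set. Apart from Pmaip1 they were low, at 7.96 to 49.2 CPM. Pmaip1 (Noxa), a pro-apoptotic protein and p53 target, was the highest: 79.9 CPM in positive and 53.8 CPM in negative cells, 169.3 and 89.1 CPM, and 37.4 and 22.3 CPM. Of 13 p53 targets 8 were read, and 2 were higher (Pmaip1 and Zmat3) and 3 lower (Mdm2, Sesn2 and Plk2) on all plates, against 15.9% and 17.3% of all genes. Foxb1, a forkhead factor of the neural tube, had 0.68, 0.82 and 0.57. Lrig1, a negative regulator of growth factor receptors, had 0.58, 0.71 and 0.64. Gdf10, a ligand of the TGF-beta family, had 1.04, 0.70 and 0.93.

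Levels did not always climb with the number of Pou5f1 reads. Pim2 was at 92.2, 130.97, 119.8 and 260.4 CPM in cells with 0, 1 to 2, 3 to 9 and at least 10 Pou5f1 reads on plate A, at 224.1, 453.7, 424.4 and 526.7 CPM on plate B, and at 32.5, 27.4, 35.4 and 57.2 CPM on plate C. It was highest in the top class on each plate. Sox2 in the same classes was at 21.4, 24.5, 29.8 and 41.8 CPM on plate A. It was at 25.9, 90.99, 29.1 and 49.8 CPM on plate B, and at 31.4, 29.6, 33.99 and 67.6 CPM on plate C.

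Zfp65, a KRAB zinc finger gene with close relatives, went another way. It was at 13.997, 15.2, 41.5 and 11.9 CPM on plate A, at 10.95, 30.1, 33.3 and 13.3 CPM on plate B, and at 14.2, 10.8, 38.3 and 13.4 CPM on plate C. Cells with 3 to 9 Pou5f1 reads therefore carried its difference on every plate, and cells with at least 10 lay close to those with 0, higher on plate B and lower on plates A and C. The class of 1 to 2 reads holds only 8, 5 and 16 cells, and the top class of plate C only 5.

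**Figure D2:**
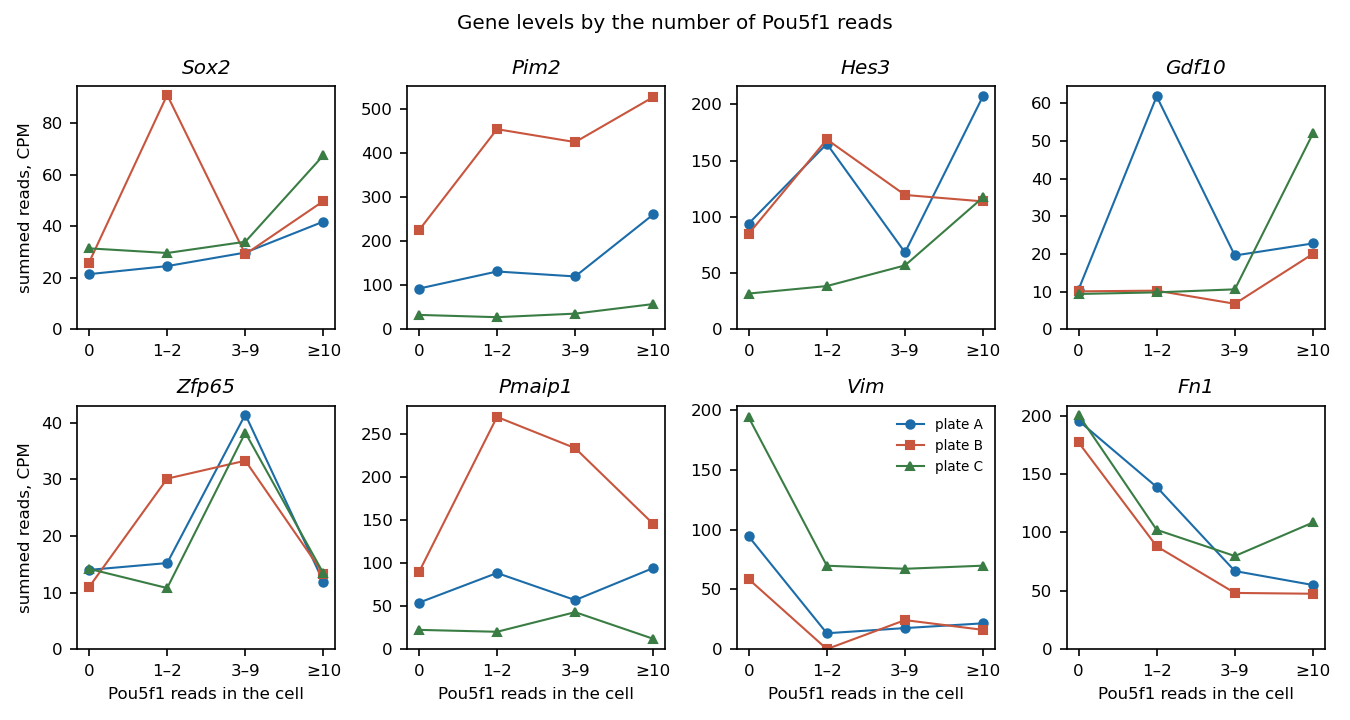
Summed reads in CPM (vertical axes from 0) of 8 genes in cells with 0, 1 to 2, 3 to 9 and at least 10 Pou5f1 reads, with 1 line per plate. Pim2 and Sox2 are highest or second highest in the top class, Zfp65 peaks at 3 to 9 reads on each plate, and Vim and Fn1 are highest at 0 reads.

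Ratios were larger among genes lower in positive cells. The 15 genes at least 2-fold lower on all 3 plates were Plk2, H19, Anxa5, Creg1, Slc39a8, Vim, Igf2, Nrp1, Egfl7, Cnn2, Fn1, Lama1, Igfbp4, Fbn2 and Cdc42ep1. They include matrix proteins (Fn1, Lama1, Fbn2), the mesenchymal intermediate filament Vim, the imprinted neighbours H19 and Igf2 on chromosome 7, and endothelial or vascular genes (Egfl7, and the semaphorin and VEGF receptor Nrp1).

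Fn1, fibronectin, summed to 59.4 CPM in positive and 195.6 CPM in negative cells on plate A, to 47.6 and 176.98 CPM on plate B, and to 84.7 and 200.6 CPM on plate C. The ratios were -1.72, -1.89 and -1.24. The median positive cell had 35.5, 11.1 and 55.6 CPM and the median negative cell 64.4, 49.7 and 93.2 CPM. As ratios, the medians lay closer than the sums on plates A and C, and further apart on plate B. Single negative cells reached 3757, 1621 and 2633 CPM, and no positive cell passed 372.9 CPM.

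Vim summed to 20.04 CPM in positive and 94.3 CPM in negative cells, to 18.3 and 58.5 CPM, and to 67.6 and 193.8 CPM, with ratios of -2.23, -1.67 and -1.52. H19, a maternally expressed long RNA, was at 11.5 CPM in positive and 46.9 CPM in negative cells, 2.69 and 50.5 CPM, and 6.26 and 67.8 CPM. Igf2, the paternally expressed growth factor beside it, had ratios of -1.52, -2.13 and -2.63. Plk2, a kinase induced by p53, had 3 reads in the positive cells of plate A, 0.12 CPM, against 39.7 CPM in negative cells, a ratio of -8.15 with an interval from -10.65 to -6.82. On the other plates it had 11.4 CPM in positive and 49.5 CPM in negative cells, and 5.86 and 68.3 CPM.

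Markers of other cell types moved with these genes. Cells in which at least 50% of 10 endothelial genes reached 10 CPM were 0.585% of positive and 7.21% of negative cells (1 and 39 cells). For head and paraxial mesoderm they were 0% of positive cells (exact interval to 2.13%) and 2.59% of negative cells, 0 and 14 cells. The endothelial list summed to 17.6 CPM in positive and 226.9 CPM in negative cells, 6.90 and 188.8 CPM, and 17.5 and 565.9 CPM. Cdh5 and Tie1 were at 0 in all positive cells of every plate. Head and paraxial mesoderm genes summed to 10.7 to 11.9 CPM in positive and 86.7 to 125.9 CPM in negative cells over the plates. Cardiac genes summed to 1.35 to 3.65 CPM in positive and 9.24 to 221.98 CPM in negative cells. For endoderm the range was 5.73 to 16.8 CPM in positive and 44.1 to 93.6 CPM in negative cells. Few cells met these lists: 0 positive and 3 negative cells for cardiac genes, and 0 and 1 for endoderm. Early neuron genes went the other way in sum, with 177.8 to 210.4 CPM in positive and 154.4 to 177.4 CPM in negative cells. Only 2 of these 9 genes were read, 1 higher on all plates and 1 neither, and 0 cells of either group met the list. Tubb3 alone was at 121.6 CPM in negative cells of plate A, where the list summed to 170.6 CPM. Surface ectoderm and placode genes summed to 421.6 CPM in positive and 791.4 CPM in negative cells, 531.9 and 662.9 CPM, and 326.9 and 444.8 CPM. Cells that met this list were 12.3% of positive and 10.7% of negative cells (21 and 58 cells). The part of these cells in the results is measured next by leaving some of them out.

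**Figure D3:**
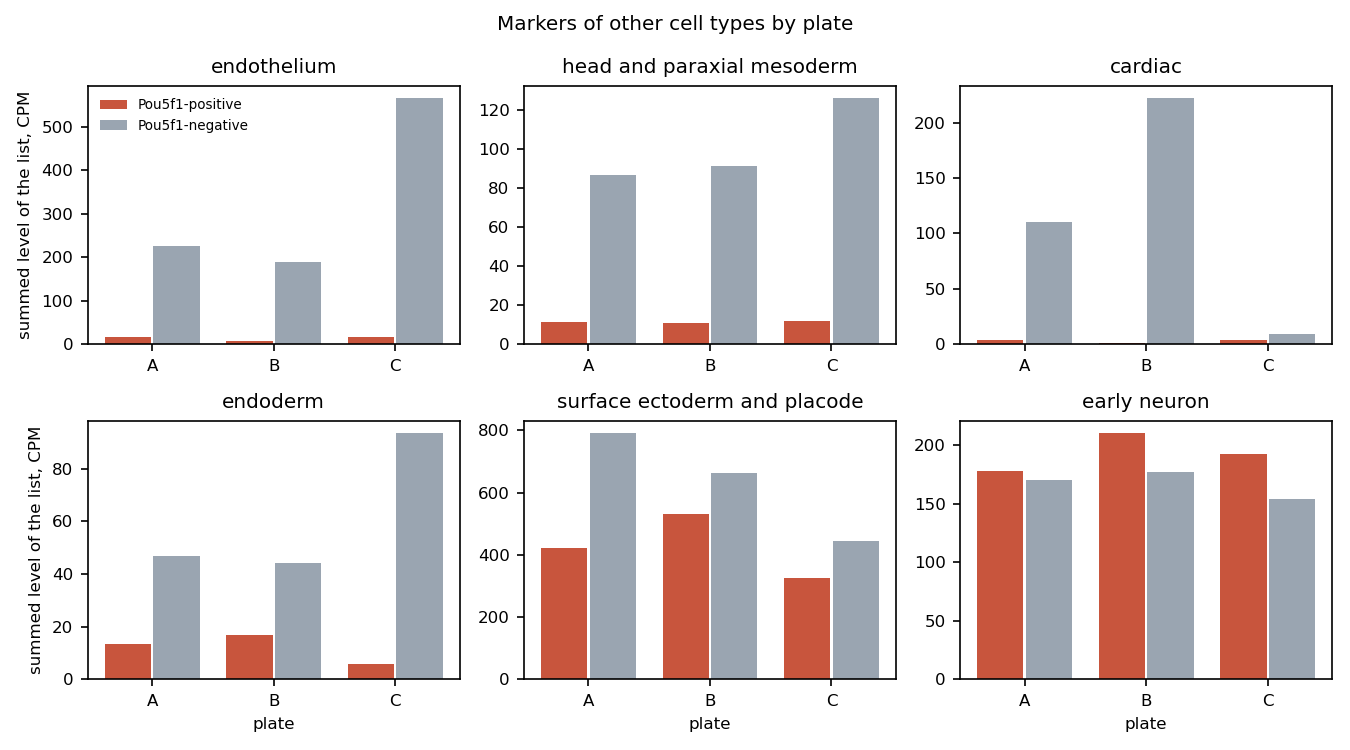
Summed level in CPM (vertical axes from 0) of 6 lists of marker genes in Pou5f1-positive (red, left) and Pou5f1-negative cells (grey, right) on each plate. Endothelial, mesodermal, cardiac, endodermal and surface ectoderm lists are lower in positive cells on every plate, the early neuron list is not.

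Leaving out every cell with at least 3 markers of endothelium, mesoderm, heart or endoderm removed 3 positive cells, 1 per plate, and 100 negative cells (43, 17 and 40 on the plates). This comparison was added after the data had been seen. After it 0 genes were 2-fold lower on all 3 plates and 0 were 2-fold higher. Of the 15 genes, 11 were still lower on every plate, 7 still met the minimum, and their median of the mean ratio moved to -0.58, against -1.64 with all cells. Nrp1 kept -1.29, -1.06 and -1.01 but fell below the minimum level, and Vim had -1.11, -0.47 and -0.17. Fn1 had -0.80, -0.50 and 0.01, and the mean ratio of Egfl7 turned to 0.11 and that of Igfbp4 to 0.16.

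The higher genes were less affected by leaving those cells out. All 15 kept a positive ratio on every plate, for example 0.61, 0.87 and 1.59 for Zfp65, 0.84, 1.55 and 1.15 for Ptgr1, and 0.37, 0.69 and 0.48 for Pmaip1. Among list members, Hes3 had 0.53, 0.19 and 0.76, En1 0.49, 0.21 and 0.16, and Sall4 0.25, 0.62 and 0.22. Pim2 had 0.96, 0.93 and 0.08. For Sox2 the ratios became 0.60, 0.52 and -0.08, so on plate C its direction rested on the cells left out. Pou3f1 also turned on that plate, to -0.29.

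**Figure D4:**
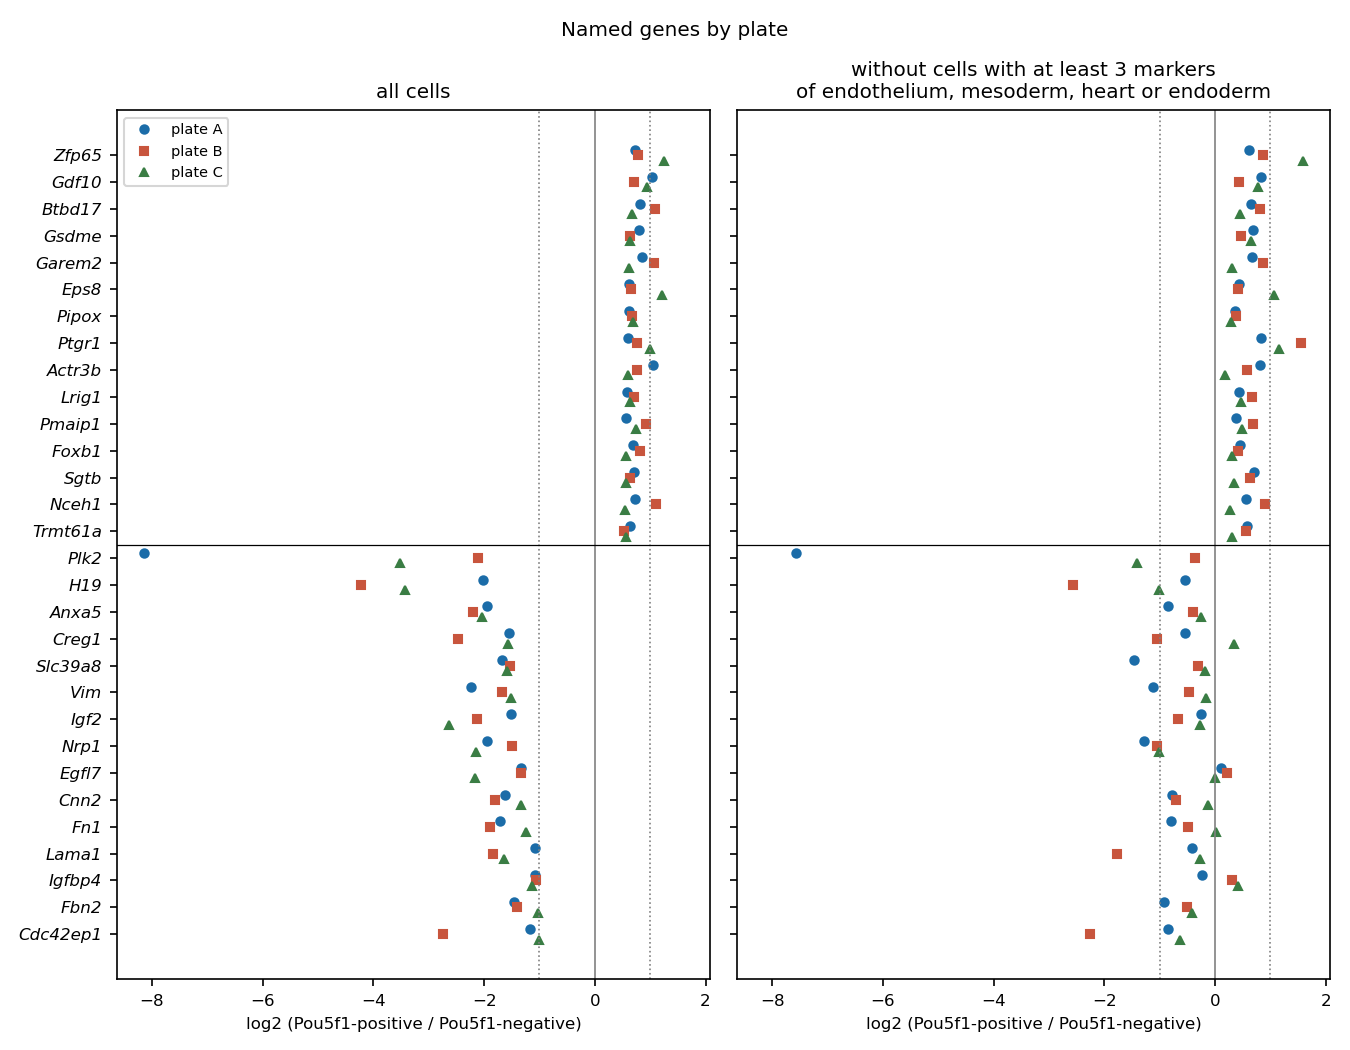
Log2 ratios of positive over negative cells (horizontal axis) for the 15 higher and the 15 lower named genes, with 1 symbol per plate, in all cells (left) and without cells carrying at least 3 markers of endothelium, mesoderm, heart or endoderm (right). Solid and dotted lines mark equal levels and 2-fold; the lower genes move towards 0 on the right, the higher genes stay above it.

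Of 15 genes of epithelial-to-mesenchymal transition and migration, 11 were read, and 7 were lower and 0 higher on all plates, against 17.3% and 15.9% of all genes, with medians of -0.44, -0.52 and -0.36. Beside Vim and Fn1 these were Snai1, Zeb1, Cdh11, Itgb1 and Mmp2. Itgb1, the beta-1 integrin chain, summed to 249.4 CPM in positive and 348.7 CPM in negative cells, to 275.04 and 394.4 CPM, and to 252.2 and 396.2 CPM. Without the marker-bearing cells it had -0.24, -0.31 and -0.35, and Cdh11 lost its direction with -0.65, 0.36 and 0.04. The ectomesenchyme genes Pdgfra (-0.96, -2.43 and -0.42) and Prrx2 (-1.07, -1.43 and -0.23) were also lower, Pdgfra in either set of cells.

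Genes induced by FGF signalling gave 7 read of 12, with 3 lower and 0 higher on all plates, where 17.3% of all genes were lower and 15.9% higher. Dusp6, a phosphatase that limits ERK, summed to 84.3 CPM in positive and 128.3 CPM in negative cells, to 92.9 and 139.35 CPM, and to 59.6 and 136.3 CPM, with ratios of -0.61, -0.58 and -1.19. Etv5, an ETS factor, had -0.17, -0.43 and -1.12, and Il17rd, an inhibitor of the pathway, had -0.18, -0.87 and -0.59. All 3 stayed lower on every plate without the marker-bearing cells, with -0.49, -0.42 and -0.72 for Dusp6. The ligands Fgf8 and Fgf15 changed sign between plates.

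Surface ectoderm and placode genes gave 4 read of 13, of which Krt18, Eya1 and Krt8 were lower on every plate, as were 17.3% of all genes. Krt18, a keratin of simple epithelia, summed to 145.4 CPM in positive and 207.6 CPM in negative cells, to 125.6 and 218.2 CPM, and to 66.9 and 129.2 CPM. Krt8 had -1.32, -0.23 and -0.52. The share of all genes higher on all plates was 15.9% and that lower 17.3%. Over 33 S phase genes the medians were 0.08, 0.05 and 0.03 (10 higher, 1 lower), over 46 read G2M genes -0.02, 0.14 and 0.08 (11 higher, 2 lower), and over 16 nucleolar genes 0.05, -0.01 and -0.01 (3 higher, 3 lower). Glycolysis and hypoxia genes gave 4 higher and 4 lower of 17 read, among them Ldhb with 0.34, 0.81 and 0.33 and Pdk1 with -0.48, -0.41 and -0.28. Crabp2, a retinoic acid carrier, had 0.30, 0.32 and 0.37, and Lin28a, an RNA-binding protein of early embryos, 0.16, 0.17 and 0.19. Of 9 primordial germ cell markers 3 were read. Kit, a receptor of germ cells and other lineages, had -0.96, -0.71 and -0.63, while Ifitm3 had 0.19, 0.93 and -1.10 and Ifitm1 had -0.33, 0.21 and -1.25. Cells that met this list were 2.92% of positive (exact interval 0.956 to 6.69%) and 1.11% of negative cells (0.408 to 2.40%), 5 and 6 cells, so the intervals overlap.

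The same split was read in cells that had no part in choosing these genes: 21 positive and 38 negative cells of 6 somites on plate D (titles such as A01.6150657.scRNA-seq), 92 and 34 of 4 somites on plate B, and 27 and 57 of 4 somites on plate E (titles such as A07.6150663.scRNA-seq). Values below are in this order. Of the 15 lower genes, 13, 15 and 13 were lower there, where 47.4%, 49.2% and 52.2% of all genes were lower. At least 2-fold lower were 9, 15 and 5 of them, against 1.59%, 2.25% and 2.50% of all genes. In these sets endothelial cells were 0 of the positive and 2, 3 and 2 of the negative cells. Head and paraxial mesoderm cells were 0, 1 and 0 of the positive and 2, 4 and 2 of the negative cells. Such cells were not left out here, and their part in these ratios was not tested.

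Of the 15 higher genes, 12, 12 and 11 were higher in these sets, where 52.6%, 50.8% and 47.8% of all genes were, with medians of 0.49, 0.45 and 0.44. Pmaip1 (0.99, 1.33 and 0.72), Lrig1 (0.44, 0.73 and 1.49) and Actr3b (0.73, 0.78 and 1.51) kept their direction in all 3, as did Zfp65, Garem2, Eps8 and Foxb1. The others, Gdf10, Btbd17, Gsdme, Pipox, Ptgr1, Sgtb, Nceh1 and Trmt61a, did not keep theirs throughout. Gdf10 had 0.79, -0.07 and 0.44. Pim2 had 1.03, 0.49 and -0.32, Sox2 -0.00, 0.53 and 0.29, and Nanog -2.41, 0.45 and -0.39, the first from 2 and 22 reads, so none of these held throughout.

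The lists followed in part. Neuroepithelial genes had medians of 0.64, 0.18 and 0.21 in these sets, with Sox21 at 1.20, 0.18 and 1.35 and Hes3 at 2.36, -0.45 and 0.39. Genes of the anterior neural plate had 0.41, 0.12 and -0.21. Of these, En1 was higher in all 3 (2.52, 0.40 and 0.44), Six3 was lower in all 3 (-0.60, -0.31 and -3.49) and Hesx1 had -0.39, 0.04 and -1.48. Sall4 (0.24, 0.11 and 0.22) and Sp8 (0.19, 0.73 and 0.53) were higher in all 3.

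FGF targets went against plates A to C in 2 of the sets, with medians of 0.54, -0.55 and 0.30. Dusp6 had -0.52, -1.23 and 0.46, Etv5 had 0.38, -0.14 and 0.30, and Il17rd had 0.54, -2.97 and 1.09. Genes of epithelial-to-mesenchymal transition had -0.32, -0.18 and -0.04, with Vim at -1.26, -1.39 and 0.11. Krt18 had -0.86, -1.24 and 0.52 and Krt8 -0.88, -1.48 and 0.31, so both keratins were higher in positive cells of plate E.

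**Figure D5:**
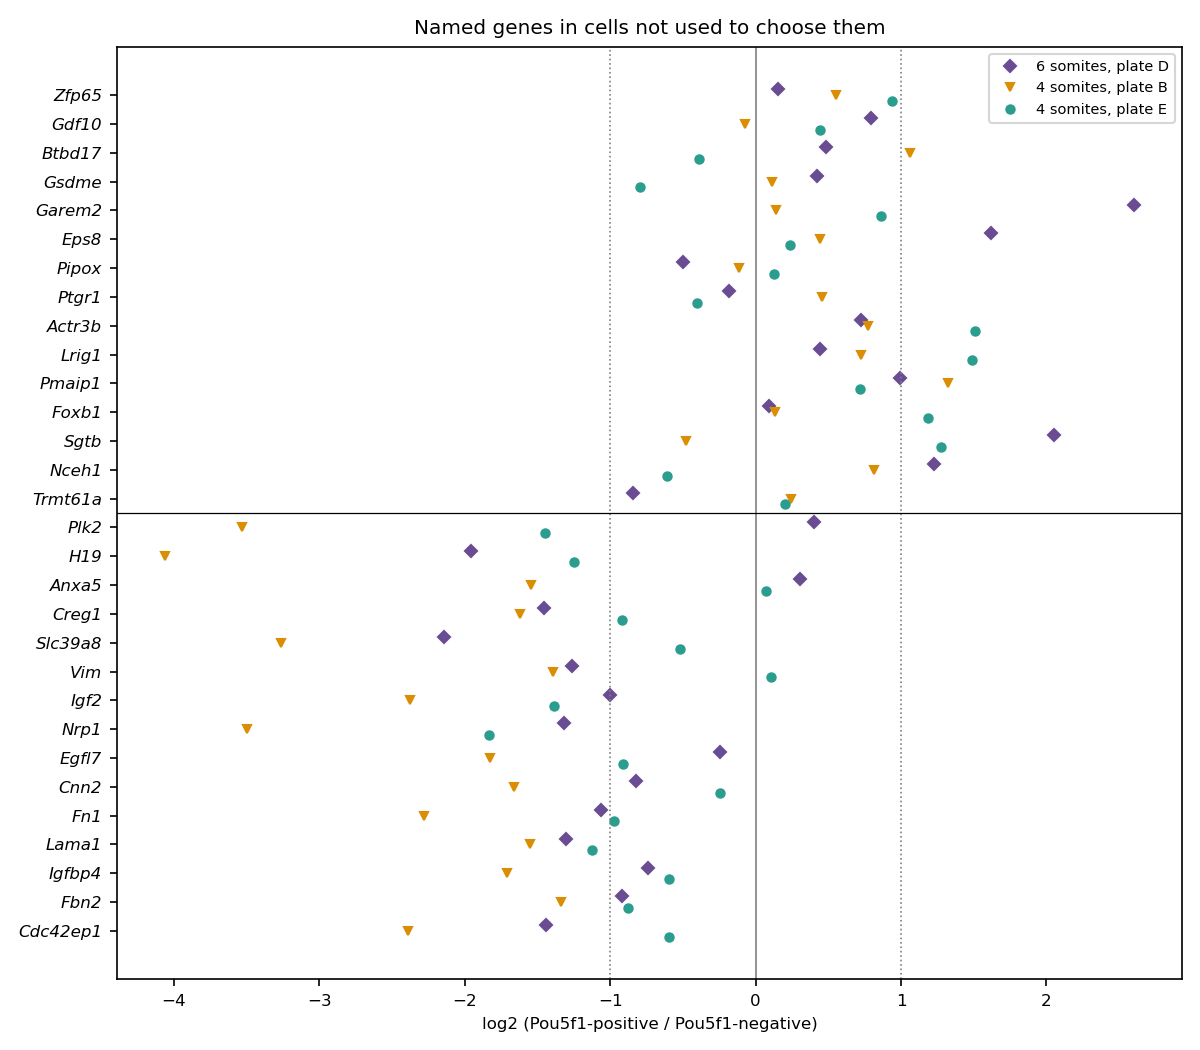
Log2 ratios of positive over negative cells (horizontal axis) for the named genes in 3 sets of cells that were not used to choose them. Most higher genes lie right of 0 and most lower genes left of it, with exceptions such as Plk2 and Anxa5 on plate D and Gsdme on plate E.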

How the data were processed

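The deposited table holds raw counts as the authors gave them: whole numbers, with no normalization and no molecular identifiers. Per the submitters' processing notes, bcl2fastq 2.18, STAR 2.6 and the mm10 genome were used. Not given in the sources used here are the counting tool, the gene annotation and the handling of multiply mapped reads. All 1778 columns matched 1 title each.

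Members and gene lists were chosen with earlier results of these data known. The plates are 7350589 (A), 7350590 (B), 7350658 (C), 6150657 (D) and 6150663 (E). Plates A, B and C held 765 cells of 6 somites, of which 741 were kept: 72, 72 and 27 positive (171) and 293, 103 and 145 negative (541). Reads were summed per plate and group, scaled to 1000000 reads outside ERCC and Rn45s, and log2 ratios were taken after adding 0.5 reads to each sum. Intervals are exact at 95% (Poisson for sums, conditional binomial for ratios, Clopper-Pearson for shares) and cover counting error only. Total reads outside ERCC per kept cell ran from 106591 to 2098451. Named were 7 fixed genes, among genes read with 1 sign on all plates the 15 in each direction with the largest smallest ratio (unnamed gene models, pseudogenes, ribosomal protein, mitochondrial and Y-linked genes, Xist and Tsix not eligible), and up to 4 members per list. Shares used cells thinned to 100000 reads, which left out 1 cell. No clustering and no doublet caller was used, since cells had been sorted singly. Alternatives included edgeR 4.0.16 and DESeq2 1.42.0 scaling of the counts. Python 3.11.15, numpy 2.4.6, pandas 2.3.3, scipy 1.17.1 and R 4.3.3 were used. The ratio code was tested on simulated data. Gene positions are GENCODE vM21, matched by symbol.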

Additional observations from a re-analysis of the deposited data

How the results depend on the processing

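The counts of genes 2-fold higher and 2-fold lower on all 3 plates, 0 (0%) and 15 (0.191% of genes read), moved with several choices. With at least 10 Pou5f1 reads for positive cells they were 2 (0.026%) and 19. Thinned to 100000 reads, 9 (0.116%) were lower. There the groups also changed: positive cells were those with at least 1 Pou5f1 read after thinning, 74, 67 and 30 cells. Without the highest cell per gene, plate and group 23 (0.293%) were lower. A minimum of 50 CPM left 4 (0.108%) lower. No minimum gave 35 (0.248%) higher and 3.59% lower of 14138 genes. At 1.5-fold there were 10 (0.127%) and 59 (0.751%). Without 1 plate there were 1 to 3 higher (0.0124 to 0.0373%) and 31 to 37 lower (0.386 to 0.458%). Cells with 0 Sox10 reads gave 1 (0.0128%) higher and 31 (0.395%) lower. Without cells in which 50% of another type's list reached 10 CPM, 2 (0.0258%) were lower. Alternatives added after seeing the data gave 0 (0%) lower without cells with 3 markers of another type, and 3 (0.0414%) higher and 6 (0.0828%) lower among cells with at least 3 Sox10 reads, where plate B had 4 positive and 13 negative cells. Of those 6 genes, 0 were among the 15 found with all cells. Of the 15, 7 were still lower on every plate among these Sox10 cells. The mean ratio of Egfl7 reversed to 0.11 in both removals, that of Igfbp4 to 0.16 in the second, and that of Nrp1 to 0.63 among Sox10 cells. The other counts of lower genes stayed within 1.5 times: TMM 15, DESeq2 size factors 14, Rn45s kept in the total 12, mean CPM per cell 14, 5 added reads 14, 1 Pou5f1 read as the minimum 15, the stricter filters on cells 15 and 18, and column blocks 14, of which 12 to 15 were among the 15. Keeping Rn45s moved the median gene by 0.03 to 0.09. Of the values for the 6 fixed genes besides Pou5f1 and the 30 ranked genes over the alternatives, 19.4% moved by more than the spread between plates and 18 changed sign, 4 of them in 2-fold genes. Of the list medians 18.8% moved by more than that spread and 64 changed sign. The causes were not tested beyond these removals.

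No paired analysis was possible because the replicate numbers name single cells and no result comes from a test. Each ratio is taken within its plate, and a test over the 3 plates as pairs was not run. The labels name no embryo, so differences between embryos cannot be told apart from those between cells, and pooled sums let a few cells of very high level weigh much. Plate C holds 27 positive cells, of which 5 have at least 10 Pou5f1 reads, and limits what can be seen on all 3 plates.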

Other observations

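Positive cells were not spread evenly over plate positions. On plate A they were 30.1% of the kept cells in columns 19 to 24, and 14.9 to 16.1% in the other blocks. On plate C row P held 7 of the 16 cells with 1 or 2 Pou5f1 reads.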
